A study of Mus musculus with 18 samples.

Results

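Chemokines are small secreted or membrane-tethered proteins that steer migrating leukocytes, and their receptors are G protein-coupled receptors on the cells that respond. Of the 25651 genes in the deposited count table, 54 belong here. They are the rows whose symbol starts with Ccl, Cxcl, Cx3cl, Xcl, Ccr, Cxcr, Cx3cr or Xcr and a digit, which gave 62 rows, less the 8 rows of the lymphoid-organising genes Ccl19, Ccl21a, Cxcl12, Cxcl13, Ccr7 and Cxcr5. The members are 33 ligand genes, 14 receptor genes and 7 copies or pseudogenes of the CCR7 ligands Ccl19 and Ccl21. RNA came from the snap-frozen whole pancreas of 18 mice, all aged 20 weeks and of mixed strain (129Sv x C57BL/6). Wild-type (WT) animals numbered 6, KPC animals 7 and KPC ASC KO animals 5, with 1 mouse per library. KPC is the common name of a genetic model of pancreatic cancer, but the labels do not spell out its alleles or the promoter of its Cre, nor do they give tumour stage, histology, sex or litter. ASC is the inflammasome adaptor encoded by Pycard, and the labels do not say in which cells or by which allele it was removed.

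Chemokines are grouped by the cysteines near the start of the mature protein, which are adjacent in the CC family, separated in the CXC and CX3C families, and reduced to a single one in the XC family. Inflammatory chemokines are made by macrophages, fibroblasts, epithelium and lymphocytes when tissue is damaged, and they draw in monocytes, neutrophils and T cells, whereas homing chemokines and receptors guide lymphocytes to particular tissues. In pancreatic tumours the CCL2-CCR2 axis is known for recruiting monocytes and the CXCR2 axis for recruiting neutrophils. The coding sequences around the first cysteines are shown for 1 or 2 measured members of each family because they carry the feature that names the families. They were read from GENCODE M21 transcripts (GRCm38), 5′ to 3′ on the coding strand, with the cysteine codons in capitals. Ccl6 (chr11:83589368-83589403, minus strand) and Ccl9 (chr11:83575908-83575943, minus strand) have adjacent cysteine codons. In Cxcl9 (chr5:92326827-92326862, minus strand) and Cxcl14 (chr13:56295900-56296113, minus strand, across an intron) 1 codon lies between them. In Cx3cl1 (chr8:94778039-94778074, plus strand) 3 codons lie between them, and Xcl1 (chr1:164932954-164932989, minus strand) has 1 cysteine codon there.
Ccl6: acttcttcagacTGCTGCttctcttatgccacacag
Ccl9: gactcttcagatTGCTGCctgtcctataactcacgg
Cxcl9: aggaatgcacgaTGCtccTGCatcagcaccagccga
Cxcl14: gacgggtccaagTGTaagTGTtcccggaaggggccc
Cx3cl1: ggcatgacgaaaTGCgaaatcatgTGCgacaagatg
Xcl1: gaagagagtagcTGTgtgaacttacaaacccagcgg

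Library totals ran from 294077 to 416879 counts in WT, from 452472 to 1626977 in KPC and from 374432 to 647947 in KPC ASC KO. Expression is given as normalised CPM, that is UMI counts scaled to a common library size after TMM normalisation. Pycard lay at 5.6 to 34.2 CPM in the KPC ASC KO mice, below all WT mice (45.4 to 65.5) and all KPC mice (35.1 to 99.5). The tissue label was checked with 8 acinar enzyme genes, whose summed CPM ran from 254028 to 478730 in WT, from 10406 to 190624 in KPC and from 125774 to 434534 in KPC ASC KO. All 8 were lower in KPC than in WT and higher in KPC ASC KO than in KPC. KPC mice 40, 89, 145 and 154 stood apart with B cell marker sums of 480 to 892 CPM, against 22.1 to 101 in the other KPC mice and 79.3 to 177 in WT, with 5 of the 6 markers tested and 1 called higher in KPC. KPC ASC KO mice 377 and 384 stood apart from mice 318, 335 and 388 with monocyte and macrophage marker sums of 1214 and 1139 CPM against 279 to 373. Ly6c2 of that list did not follow, at 9.3 and 20.4 CPM against 11.4 to 19.5. In KPC, Ly6c2 stood at 118 to 125.9 CPM in mice 40, 89, 145 and 154 and at 6.8 to 24 in the others. Results below are also given without KPC mice 40, 89, 145 and 154 or KPC ASC KO mice 377 and 384 where that changes a call. That alternative was chosen after seeing the data. In whole tissue, fewer cells of a type and less RNA per cell cannot be told apart.

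In KPC pancreas, 6 of the 12 chemokine genes with enough counts to pass the filter were higher than in WT, and none was lower. They were the monocyte receptor gene Ccr2, the ligand genes Cxcl14, Ccl17, Ccl9 and Cxcl16, and a copy of Ccl21b. Their log2 differences ran from 0.99 for the Ccl21b copy to 2.63 for Ccr2. Of all 6920 genes tested, 14.8% were called higher in KPC at an adjusted p under 0.05. The median log2 difference of the 12 genes was 1.28, beside 0.06 over all genes tested. The 12 are not a fair sample of the 54 members, because the deeper KPC libraries let a gene pass through its KPC counts alone: Ccr2 had 6 counts in all WT libraries together and 285 in KPC. Scaling by library totals moved the median of all genes to 1.41 and that of the 12 to 2.66, and all 12 were then called higher. In that fit 5684 of all 6920 genes were called in either direction. The plot of log2 differences gives both KPC comparisons for these 12 genes.

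**Figure D1:**
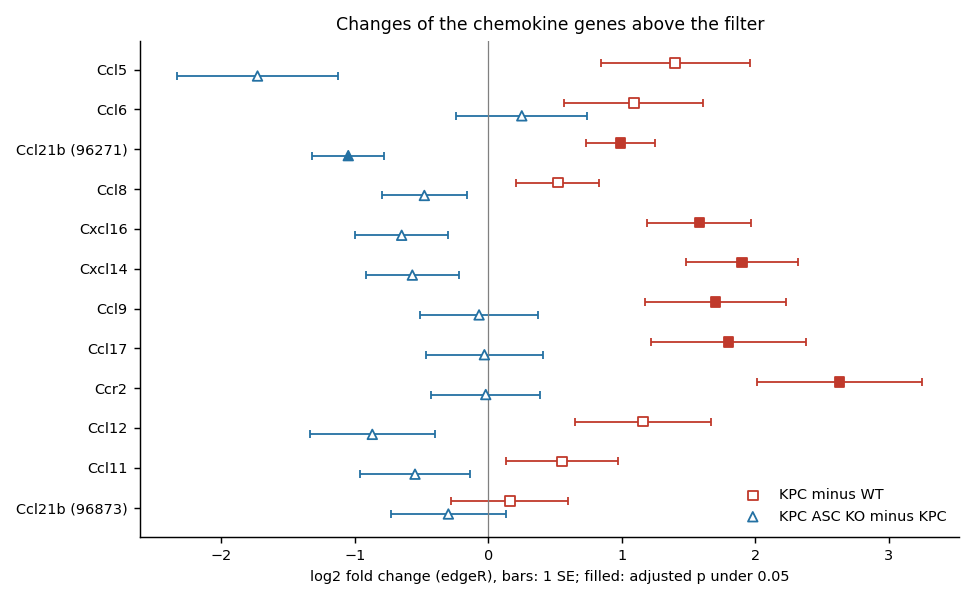
Log2 fold changes of the 12 chemokine genes above the filter, KPC minus WT (squares) and KPC ASC KO minus KPC (triangles), with bars of 1 SE and filled symbols at an adjusted p under 0.05. All 12 squares lie right of 0 and 6 are filled, while 1 triangle, that of the Ccl21b copy on GL456350.1, is filled, at -1.05.

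Ccr2, the receptor through which monocytes leave the bone marrow and enter tissue, lies on chromosome 9 at 124101950 to 124113557 of GRCm38. Its lowest, median and highest values were 0, 4.65 and 6.90 CPM in WT and 11.4, 32.4 and 48.0 CPM in KPC. In KPC ASC KO mice 318, 335, 377, 384 and 388, the order used for this group throughout, it stood at 11.4, 11.7, 53.8, 35.2 and 8.4 CPM. Every KPC mouse and every KPC ASC KO mouse lay above every WT mouse, and KPC ASC KO mice 377 and 384 were far above the other 3 of their group. For those 3 the gap to WT rests on few counts. Mice 318, 335 and 388 had 4, 3 and 2 counts, and WT mouse 1197 also had 2, so library scaling alone set mouse 388 above it. The KPC minus WT difference was 2.63 (SE 0.62, adjusted p = 0.00307, edgeR). It stayed called in all 18 fits that left out 1 mouse, with adjusted p up to 0.0105. KPC ASC KO minus WT was 2.61 (SE 0.67), which did not pass (adjusted p = 0.179), and KPC ASC KO minus KPC was -0.02 (SE 0.41, adjusted p = 0.987).

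The CCR2 ligand genes Ccl2, Ccl7, Ccl8 and Ccl12 sit together on chromosome 11. Ccl8 was measured at a median of 50.8 CPM in WT (37.4 to 110) and 85.7 CPM in KPC (42.6 to 150), and at 34.2, 66.4, 100.2, 79.8 and 38.0 CPM in KPC ASC KO. These ranges overlapped, and the KPC minus WT difference of 0.52 (SE 0.31) did not pass (adjusted p = 0.218). Ccl12 ran from 0 to 40.8 CPM in WT (median 4.70) and from 13.8 to 44.3 CPM in KPC (median 21.0), and stood at 5.7, 15.6, 20.4, 13.0 and 16.9 CPM in KPC ASC KO. WT mouse 69 alone lay at 40.8 and the other WT mice at 10.3 or less, and the difference of 1.16 (SE 0.51) did not pass (adjusted p = 0.0856). Ccl2 and Ccl7, below the filter, were summed, and the sum was 3.40 to 13.8 CPM in WT (median 10.3), 20.8 to 42.0 CPM in KPC (median 24.8) and 14.2, 3.9, 26, 33.4 and 12.7 CPM in KPC ASC KO. All 7 KPC sums lay above all 6 WT sums. Without the filter, Ccl7 was called higher in KPC than in WT (2.15, SE 0.73, adjusted p = 0.0411), but leaving out any 1 of 8 mice ended that call, as did DESeq2 (adjusted p = 0.0658) and leaving out KPC mice 40, 89, 145 and 154 (2.25, adjusted p = 0.0756). Ccl2 was not called (1.25, SE 0.56, adjusted p = 0.123).

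**Figure D2:**
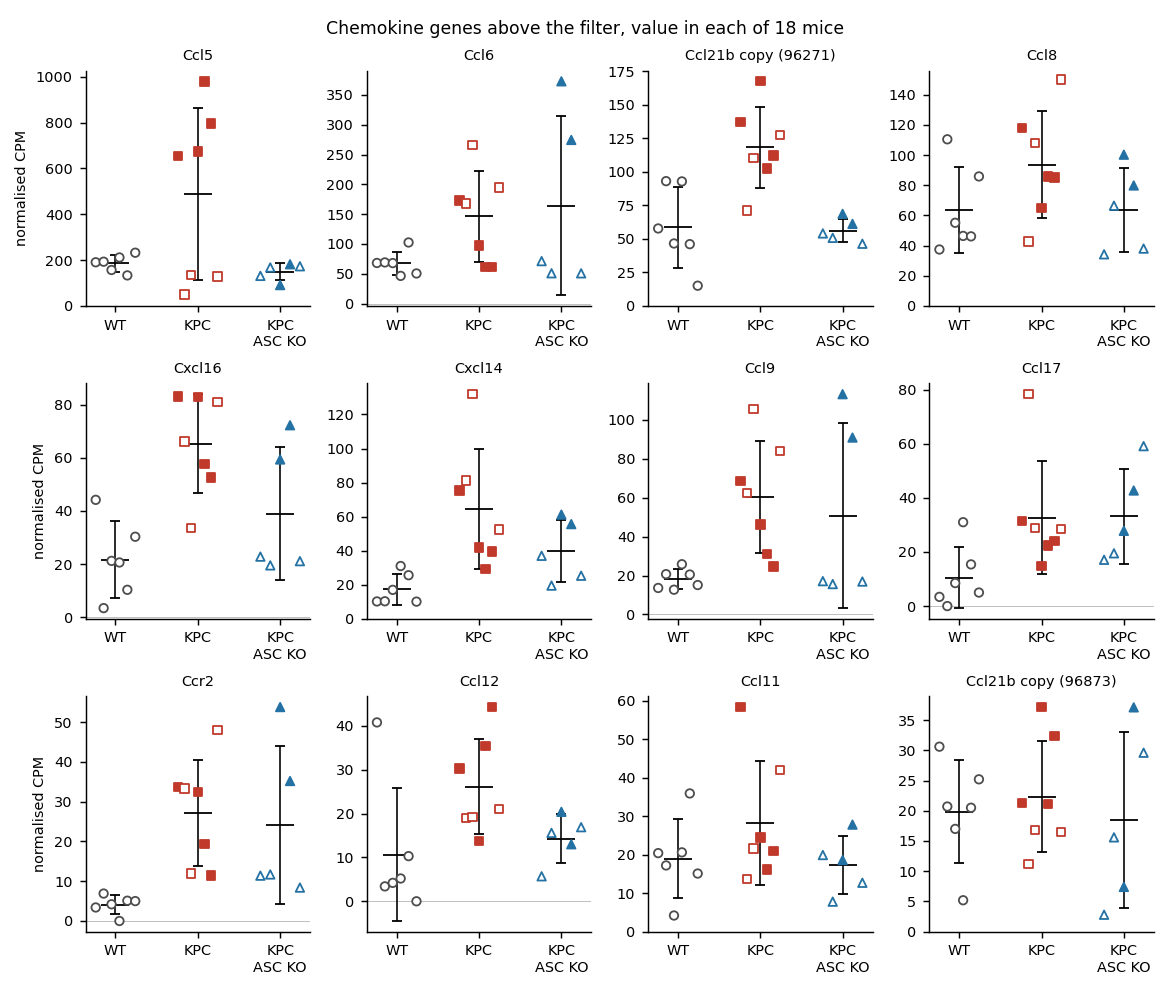
Normalised CPM (linear axes) of the 12 chemokine genes above the filter in each of 18 mice, with the mean and SD of each group as black bars. Filled squares are KPC mice 40, 89, 145 and 154 and filled triangles are KPC ASC KO mice 377 and 384. Filled squares reach 655 to 980 CPM for Ccl5. Filled triangles lie above the other triangles for Ccl6, Ccl8, Ccl9, Cxcl14, Cxcl16, Ccr2 and the Ccl21b copy ENSMUSG00000096271.

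Among ligands of CCR1, Ccl9 and Ccl6 are neighbouring genes of myeloid cells on chromosome 11, at 83572919 to 83578636 and 83587882 to 83593087. Ccl9 had a lowest, median and highest value of 12.7, 17.8 and 25.8 CPM in WT and 24.6, 62.5 and 106 CPM in KPC, and stood at 17.1, 15.6, 113.2, 90.9 and 16.9 CPM in KPC ASC KO. The groups nearly separated: KPC mouse 154 at 24.6 was the single KPC value inside the WT range, and KPC ASC KO mouse 377 lay above all KPC mice, mouse 384 within their range and the other 3 within that of WT. The KPC minus WT difference was 1.70 (SE 0.53, adjusted p = 0.0212), and it did not pass without WT mouse 69 (adjusted p = 0.0514) or in limma-voom (1.37, adjusted p = 0.195). Ccl6 ran from 46.4 to 103 CPM in WT (median 68.0) and from 61.1 to 266 CPM in KPC (median 168), and stood at 71.2, 50.8, 372.9, 274.5 and 50.7 CPM in KPC ASC KO. KPC mice 89, 145 and 154 overlapped WT, and KPC ASC KO mice 377 and 384 held the highest Ccl6 values of all 18 mice. KPC and WT differed by 1.09 (SE 0.52, adjusted p = 0.126). When KPC ASC KO mice 377 and 384 were left out of the shared estimate of spread, the difference was 1.08 and passed (adjusted p = 0.0198).

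The promoter of Ccl9 and those of Cxcl10 and Cxcl14 are printed because these genes rose, or in the case of Cxcl10 reached its highest values, in KPC mice and hold matches to motifs of inflammatory transcription factors. They come from the RefSeq promoter table (GRCm38.p6), on the strand of the gene, with the matches in capitals. Ccl9 (chr11:83578637-83578756, minus strand) ends at the base before the start and holds a match to the NF-kB consensus on the reverse strand. Cxcl10 (chr5:92348969-92349088, minus strand) lies 199 to 80 bases before the start and holds 3 matches to the NF-kB consensus, 2 of which overlap on opposite strands. Cxcl14 (chr13:56296644-56296763, minus strand) lies 212 to 93 bases before the start and holds GAAA, NN and GAAA in a row, as in the core of the interferon response element.
Ccl9: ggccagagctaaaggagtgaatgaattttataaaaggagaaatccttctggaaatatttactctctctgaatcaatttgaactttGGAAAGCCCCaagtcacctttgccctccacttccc
Cxcl10: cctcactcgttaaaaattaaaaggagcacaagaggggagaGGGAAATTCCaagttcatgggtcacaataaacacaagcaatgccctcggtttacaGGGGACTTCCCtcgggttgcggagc
Cxcl14: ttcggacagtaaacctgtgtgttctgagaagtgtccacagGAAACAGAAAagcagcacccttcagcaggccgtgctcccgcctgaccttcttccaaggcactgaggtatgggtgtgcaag
Searched on both strands in windows of equal length, the NF-kB consensus was found in 11 of the 42 promoters that the table holds for 35 member genes and in 8.46% of all 32851 promoters. GAAA, NN and GAAA in a row was found in 2 of the 42, those of Cxcl10 and Cxcl14, and in 3.44% of all promoters, TTCNNNGAA in 3 of the 42 and in 8.30% of all, and TATAA in 14 of the 42 and in 24.9% of all. A match is a stretch of letters and was not tested as a site.

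Ccl5, an attractant of T cells and monocytes made mainly by T cells and NK cells, gave 5058 of the 14269 counts of all members in KPC. Its lowest, median and highest values were 133, 192 and 232 CPM in WT and 49.7, 655 and 980 CPM in KPC, and it stood at 131.1, 168.0, 90.9, 181.8 and 173.1 CPM in KPC ASC KO. KPC mice 40, 89, 145 and 154 lay at 655 to 980 CPM, above every other mouse, while KPC mice 43 and 210, at 49.7 and 129.1, lay below every WT mouse and KPC mouse 48, at 134.4, near the lowest. In edgeR the difference from WT of 1.40 (SE 0.56) did not pass (adjusted p = 0.0695). It passed in DESeq2 (1.40, adjusted p = 0.02), without robust estimation (adjusted p = 0.0317), with the stricter filter (1.68, adjusted p = 0.0284) and without KPC mouse 43, 48 or 210 (1.56 to 1.61, adjusted p from 0.0119 to 0.0377). The direction turned without those 4 mice (-0.89, adjusted p = 0.046) and with the B cell marker level as a covariate (-0.08, adjusted p = 0.812). In the same 4 mice the 6 T cell markers summed to 157 to 232 CPM, against 14.6 to 34.5 in the other KPC mice and 15.4 to 41.3 in WT, and the 5 NK cell markers to 37.1 to 76.1 CPM, against 6.2 to 30 and 10.1 to 25.8. No T cell marker gene passed the filter, nor any NK cell marker gene but Nkg7, and Ncr1 and Klrb1c were at 0 counts in WT. Nkg7 gave most of the NK cell sum, at 24.7 to 58.7 CPM in the 4 mice. Gzma did not follow the sum, at 5.6 to 7.8 CPM in the 4 mice and 0 to 12.7 in WT. The part of these cells in the Ccl5 values was not tested. The sparse inflammatory ligand genes Ccl3 and Ccl4 had 17 and 38 counts in KPC and 0 and 1 in WT and were not called.

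**Figure D3:**
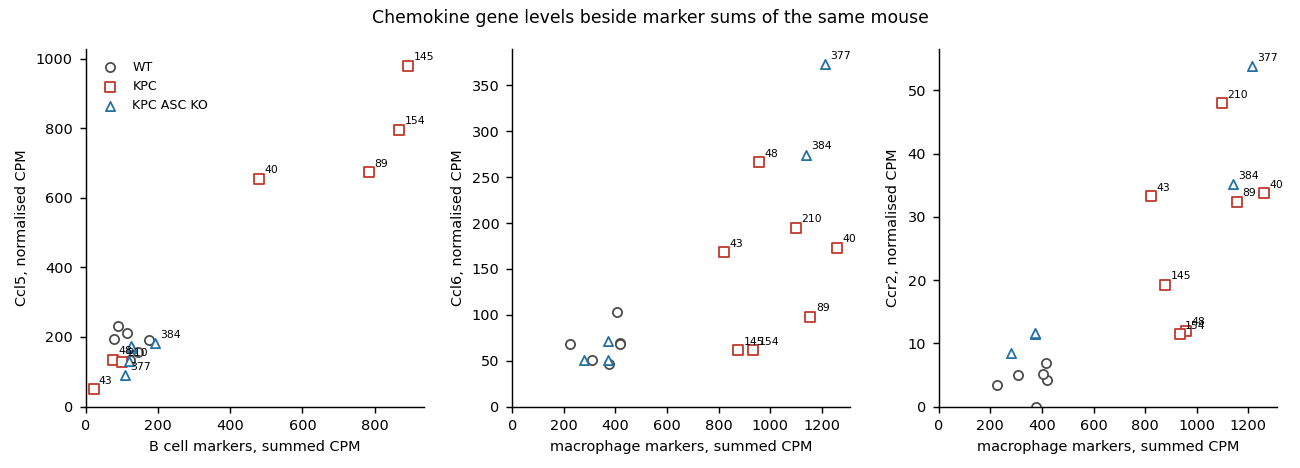
Ccl5 against summed B cell markers, and Ccl6 and Ccr2 against summed monocyte and macrophage markers, all in normalised CPM, with 1 point per mouse and numbers for all KPC mice and for KPC ASC KO mice 377 and 384. For Ccl5, KPC mice 40, 89, 145 and 154 lie at the upper right and the other 14 mice at the lower left, and for Ccr2 all KPC mice and mice 377 and 384 lie right of all other mice.

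Cxcl14, a chemokine of epithelium and fibroblasts, lies on chromosome 13 at 56288643 to 56296551. Its lowest, median and highest values were 10.1, 13.7 and 31.0 CPM in WT and 29.2, 52.5 and 132 CPM in KPC, and it stood at 37.0, 19.5, 61.2, 55.6 and 25.3 CPM in KPC ASC KO. KPC mouse 145, at 29.2, was the single KPC value inside the WT range, and the KPC ASC KO mice overlapped both groups. KPC exceeded WT by 1.90 (SE 0.42, adjusted p = 0.00201), which stayed called in all 18 fits that left out 1 mouse and missed the threshold in limma-voom (1.69, adjusted p = 0.0515). Cxcl17, a mucosal chemokine, had 0 counts in all 6 WT libraries, 61 in KPC, where all 7 libraries had at least 1, and 14 in KPC ASC KO, where 4 of 5 did. Against a floor of 3 counts over the WT group (2.13 CPM), the pooled KPC level of 5.89 CPM was at least 2.76-fold higher. Without the filter Cxcl17 was called in KPC against WT (adjusted p = 0.0269), and the call was lost without WT mouse 69 or 1197 (adjusted p up to 0.055) and in DESeq2 (adjusted p = 0.0609).

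Within KPC ASC KO, the fibroblast marker sum was high in mice 377 and 384, as were Cxcl14, Ccl6, Ccl9 and Ccr2. Within KPC, that sum, Cxcl14, Ccl6 and Ccl9 were each higher in mice 40, 43, 48 and 210 than in 89, 145 and 154. Ccr2 did not follow there. KPC mouse 48, with a fibroblast sum of 2104.7 CPM, had Ccr2 at 12 CPM. KPC mouse 89, with a fibroblast sum of 1594.6 CPM, had Ccr2 at 32.4 CPM. The fibroblast sum was 735 to 1079 CPM in WT and 1387 to 2706 in KPC. It was 2904 and 2686 in KPC ASC KO mice 377 and 384, and 844 to 940 in the other 3. Of its 6 genes, 5 passed the filter and were called higher in KPC than in WT. The duct and epithelium marker sum was 528 to 590 CPM in KPC mice 89, 145 and 154 and 880 in mouse 40. It was 1790 to 2016 in KPC mice 43, 48 and 210 and 899 to 1500 in WT. None of its 6 genes was called between KPC and WT. Of the 9 monocyte and macrophage markers 7 were tested and 6 were higher in KPC, and the sum was 225 to 420 CPM in WT and 823 to 1260 in KPC. With the macrophage marker sum as a covariate none of the 12 chemokine genes was called and Ccl6 and Ccl9 turned to -0.72 and -0.25, but 5 of all 6920 genes were called in that fit, and every KPC mouse lay above every WT mouse in the covariate. The part of these cell types in the chemokine differences was not tested.

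Of the transmembrane chemokines, Cxcl16, the CXCR6 ligand of macrophages, was at 3.45, 20.9 and 44.2 CPM (lowest, median and highest) in WT and 33.6, 66.2 and 83.1 CPM in KPC, and at 22.8, 19.5, 59.4, 72.3 and 21.1 CPM in KPC ASC KO. KPC mouse 48 at 33.6 overlapped WT mouse 69 at 44.2, and KPC ASC KO mice 377 and 384 again lay within the KPC range and the other 3 within that of WT. The KPC minus WT difference was 1.58 (SE 0.39, adjusted p = 0.00488) and stayed called in all 18 fits that left out 1 mouse. Exons of Cxcl16 overlap those of Zmynd15 on the other strand, and whether the counting used strand is not given in the sources used here. Cx3cl1, the CX3CR1 ligand, had 199 counts in KPC against 9 in WT, and KPC ASC KO had 32. These counts are not scaled to library depth, and KPC mouse 43 gave 133 of the 199. The scaled median was 8.99 CPM for KPC, 6.01 CPM for WT and 14.8 CPM for KPC ASC KO. Without the filter, Cx3cl1 differed by 0.11 (SE 0.48, adjusted p = 0.94, edgeR) between KPC ASC KO and KPC. Its KPC minus WT difference of 1.35 (SE 0.60) did not pass (adjusted p = 0.119), and KPC mouse 43 was highest at 41.3 CPM.

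Ccl17 and Ccl22 attract CCR4-bearing T cells and are typical products of dendritic cells. Ccl17 was at 0, 6.77 and 31.0 CPM (lowest, median and highest) in WT and 14.9, 28.5 and 78.3 CPM in KPC, and at 17.1, 19.5, 27.8, 42.7 and 59.1 CPM in KPC ASC KO. WT mice 1213 and 1237, at 31.0 and 15.4, overlapped KPC, and KPC mouse 43 stood alone at 78.3. The KPC minus WT difference was 1.80 (SE 0.58, adjusted p = 0.0224), and it did not pass without WT mouse 69 or 1197 (adjusted p up to 0.0638) or in limma-voom (1.82, adjusted p = 0.116). Ccl22, below the filter, ran from 0 to 10.3 CPM in WT and from 3.73 to 31.7 CPM in KPC, and stood at 0, 0, 7.4, 13.0 and 0 CPM in KPC ASC KO. KPC mice 40, 89, 145 and 154, at 14.6 to 31.7, lay above all other mice, and the other 3 KPC mice, at 3.7 to 7.2, lay within the WT range. Without the filter Ccl22 was called in KPC against WT (2.64, SE 0.87, adjusted p = 0.0394), but not without any 1 of 8 mice (adjusted p up to 0.0884), and without those 4 mice it was 0.73 (adjusted p = 0.723). The dendritic cell markers summed to 42.7 to 77.9 CPM in the 4 mice, 20.5 to 37.5 in the other KPC mice and 3.4 to 61.5 in WT, none of the 5 passed the filter, and Clec9a had 0 counts in WT.

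Without the filter, 45 of the 54 members had the 15 counts in all that were needed for a test. Of these, 13 were called higher in KPC than in WT, where 8.92% of the 16176 genes tested were called higher, and 1 was called lower, where 6.34% were. The median log2 difference of the 45 was 1.52 with the 4 genes at 0 in WT set to their bound, against 0.33 over all genes fitted. Beside the 6 called above the filter, the 13 included Cxcl17, Ccl22, Ccl7, Cxcl5, Cxcr2 and Cxcl9. The 1 called lower was the Ccl27a row on JH584293.1 (ENSMUSG00000095247, -3.17, SE 0.92, adjusted p = 0.0182), 1 of 3 rows with that symbol, whose 13 WT counts came mostly from WT mouse 69 at 40.8 CPM. Without that mouse its difference was -0.14 (adjusted p = 0.968), and without KPC mice 40, 89, 145 and 154 it was -2.65 (adjusted p = 0.114). Leaving out 1 mouse at a time moved the number called from 14 to between 7 and 18, and it was 7 without WT mouse 69 or 1197, 8 without 1238 and 9 without 1202 or 1237. Over all 16176 genes the number called moved from 2468 to between 1849, without WT mouse 69, and 2867, without KPC mouse 48.

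Cxcl9 and Cxcl10 are interferon-induced ligands of the T cell receptor CXCR3. Cxcl9 ran from 0 to 10.2 CPM in WT (median 4.65) and from 2.40 to 40.1 CPM in KPC (median 18.0), and stood at 2.8, 0, 3.7, 14.8 and 0 CPM in KPC ASC KO. The highest were KPC mice 154, 145, 89 and 40, at 18.0 to 40.1, and KPC mice 43 and 48 lay within the WT range. Its difference of 2.36 (SE 0.80) was called (adjusted p = 0.0472), but not without any 1 of 11 mice (adjusted p up to 0.111), and it was 0.60 (adjusted p = 0.744) without the 4 mice. Cxcl10 ran from 0 to 5.05 CPM in WT and from 1.24 to 10.6 CPM in KPC and was not called (2.26, SE 0.85, adjusted p = 0.0678). Exons of Cxcl10 overlap Art3 on the other strand. Cxcl11 had 3 counts in all, from the library of KPC mouse 145.

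The CXCR2 ligands Cxcl1, Cxcl2, Cxcl3 and Cxcl5 draw in neutrophils and are made by epithelium and stroma. Together they had 85 counts in KPC against 2 in WT, and KPC ASC KO had 15, and Cxcl5 gave 52 of the 85 and 13 of the 15. The sum ran from 0 to 5.05 CPM in WT and from 3.73 to 12.4 CPM in KPC, and was 2.8, 3.9, 18.6, 5.6 and 0 CPM in KPC ASC KO. KPC mice 43 and 48 had the highest KPC sums and KPC ASC KO mouse 377 the highest of all. Cxcl5 had 0 counts in every WT library and was found in all 7 KPC libraries, and against the floor of 3 WT counts its pooled KPC level of 5.02 CPM was at least 2.36-fold higher. Without the filter the call (adjusted p = 0.0438) was lost when any 1 of 9 mice was left out (adjusted p up to 0.0827) and in DESeq2 (adjusted p = 0.107). Cxcl2 had 19 counts in KPC, 1 in WT and 0 in KPC ASC KO, and Cxcl1 and Cxcl3 had 12 and 5 counts in all 18 libraries.

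**Figure D4:**
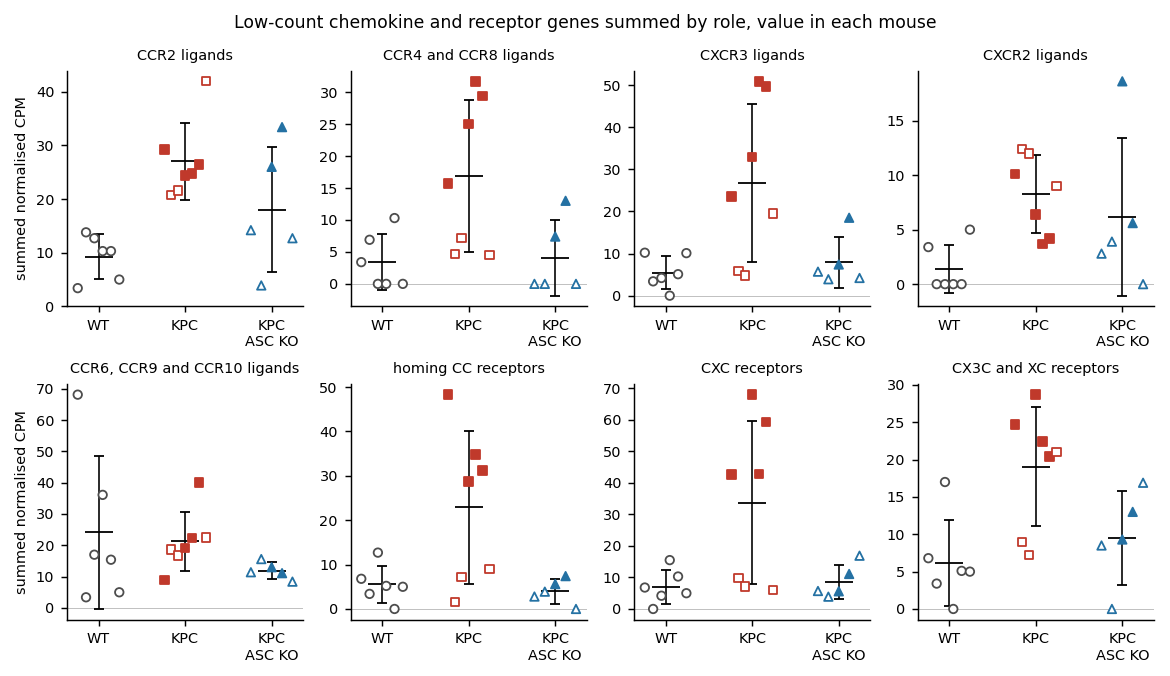
Summed normalised CPM (linear axes) of the chemokine and receptor genes below the filter, by role, in each mouse, with the mean and SD of each group as black bars. Filled squares are KPC mice 40, 89, 145 and 154 and filled triangles are KPC ASC KO mice 377 and 384. Filled squares lie above all other symbols for CCR4 and CCR8 ligands, CXCR3 ligands, homing CC receptors and CXC receptors, whereas all 7 squares lie above all circles for CCR2 ligands.

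Receptor genes below the filter numbered 13. Of the inflammatory CC receptor genes, Ccr1, found on monocytes and macrophages, ran from 0 to 5.16 CPM in WT and from 4.79 to 19.5 CPM in KPC, and stood at 2.8, 0, 11.1, 13.0 and 8.4 CPM in KPC ASC KO. KPC mouse 154 alone, at 4.8, lay inside the WT range. Neither Ccr1 (1.91, SE 0.71, adjusted p = 0.0635) nor the eosinophil receptor gene Ccr3 (2.45, SE 1.14, adjusted p = 0.141) was called.

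The CXC receptor genes Cxcr2, Cxcr3, Cxcr4 and Cxcr6 summed to 42.7, 68.0, 42.9 and 59.3 CPM in KPC mice 40, 89, 145 and 154. In the other KPC mice they summed to 6.0 to 9.9, in WT to 0 to 15.5 and in KPC ASC KO to 3.9 to 16.9 CPM. Cxcr2, the neutrophil receptor, accounted for 162 of the 373 KPC counts and for 2 of the 9 in WT. It stood at 23.6, 39.9, 9.9 and 26.4 CPM in those 4 KPC mice, at 0.6 to 4.5 in the others and at 0 to 5.16 in WT. Its difference of 3.45 (SE 1.15, adjusted p = 0.0448) was called, but in 15 of the 18 fits that left out 1 mouse it was not, and without the 4 mice it was 0.40 (adjusted p = 0.898). Without KPC ASC KO mice 377 and 384 it was 3.47 and did not pass (adjusted p = 0.0697). The 6 neutrophil markers summed to 206 and 298 CPM in KPC mice 40 and 89, to 40.5 to 53.4 in the other KPC mice, to 17.0 to 75.9 in WT and to 12.7 to 72.4 in KPC ASC KO. Mmp8 had 0 counts in WT and KPC ASC KO, and Ly6g 0 in WT. Cxcr4 (1.91, SE 0.87), Cxcr3 (1.54, SE 0.90) and Cxcr6 (2.88, SE 1.13), receptors of lymphocytes, were not called (adjusted p = 0.133, 0.242 and 0.0772).

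Of the homing CC receptor genes, Ccr9, which directs T cells to the gut, and Ccr6, a receptor of B cells and Th17 cells, carried nearly all counts. Ccr9 stood at 42.7, 18.1, 22.4 and 16.8 CPM in KPC mice 40, 89, 145 and 154, at 0.3 to 4.5 in the other KPC mice, at 0 to 5.05 in WT and at 0 to 3.91 in KPC ASC KO. The 4 mice lay above all others and the 3 remaining KPC mice lay within the WT range. For Ccr9 the difference of 2.51 (SE 0.95) did not pass (adjusted p = 0.0766), nor did that of Ccr6 (1.36, SE 0.81, adjusted p = 0.251). Exons of Ccr9 overlap Slc6a20a on the other strand and a predicted gene on its own strand. Cx3cr1, a receptor of patrolling monocytes and macrophages, ran from 0 to 17.0 CPM in WT and from 7.20 to 22.8 CPM in KPC and was not called (1.67, SE 0.60, adjusted p = 0.0552). Xcr1, the marker receptor of cross-presenting dendritic cells, and its ligand gene Xcl1 had 45 and 41 counts in KPC against 2 and 1 in WT, and neither was called (adjusted p = 0.255 and 0.158).

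The eosinophil attractant Ccl11 had a median of 18.8 CPM in WT and 21.6 CPM in KPC (0.55, SE 0.42, adjusted p = 0.341) and stood at 19.9, 7.8, 18.6, 27.8 and 12.7 CPM in KPC ASC KO. Ccl24, of the same role, had 17 counts in all. Of the ligands of CCR6, CCR9 and CCR10, Ccl20 (1.95, SE 1.03, adjusted p = 0.195), Ccl25 (0.64, SE 0.71, adjusted p = 0.578) and the chromosome 4 row of Ccl27a (-0.26, SE 0.68, adjusted p = 0.838) were not called. The 9 members with fewer than 15 counts were Ccl28 with 14, Cxcl1 with 12, Ccl1 with 7, Ccr10 and Cxcl3 with 5 each, Ccr4 with 4, Cxcl11 with 3, and Ccl27b and the Ccl27a row on JH584294.1 with 1 each.

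The copies of Ccl21, which guides CCR7-bearing T cells and dendritic cells to lymphatics, are nearly identical in sequence, so how reads were split among them is uncertain. The Ccl21b row on GL456350.1 (ENSMUSG00000096271) was at 15.1, 52.2 and 93.1 CPM (lowest, median and highest) in WT and 71.2, 112 and 168 CPM in KPC. In KPC ASC KO it stood at 54.1, 50.8, 68.7, 61.2 and 46.4 CPM, with all 5 mice below all 7 KPC mice. It was higher in KPC than in WT (0.99, SE 0.26, adjusted p = 0.00719), and without KPC mice 40, 89, 145 and 154 this was 0.76 (adjusted p = 0.123). The row on JH584293.1 (ENSMUSG00000096873), with a median of 20.6 CPM in WT, 21.1 CPM in KPC and 15.6 CPM in KPC ASC KO, was not called (0.16, SE 0.44, adjusted p = 0.81). The rows below the filter, Ccl21c (-0.12, SE 0.46, adjusted p = 0.893), Ccl21d (1.01, SE 0.85, adjusted p = 0.446), the chromosome 4 row of Ccl21b (1.08, SE 0.88, adjusted p = 0.428) and the pseudogenes Ccl19-ps3 with 32 and Ccl19-ps1 with 20 counts, were not called either.

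When KPC ASC KO was compared with KPC, 1 of the 12 chemokine genes above the filter was called lower, the Ccl21b copy on GL456350.1 (-1.05, SE 0.27, adjusted p = 0.0187), and none was called higher. Of all genes tested, 2.69% were called lower. The median of the 12 was -0.52, beside -0.05 over all genes, and 11 of the 12 estimates were below 0. Ccl5 differed by -1.73 (SE 0.60, adjusted p = 0.0798), Ccl12 by -0.87 (SE 0.47, adjusted p = 0.244), Cxcl16 by -0.65 (SE 0.35, adjusted p = 0.24) and Cxcl14 by -0.57 (SE 0.35, adjusted p = 0.307), while Ccl9 (-0.07, SE 0.44), Ccl17 (-0.03, SE 0.44) and Ccl6 (0.25, SE 0.49) lay near 0 with adjusted p of 0.945, 0.986 and 0.793. The Ccl21b call was lost without KPC ASC KO mouse 318, 335 or 388 (adjusted p up to 0.0598) and without KPC mice 40, 89, 145 and 154 (-0.80, adjusted p = 0.295). Without KPC ASC KO mice 377 and 384, Cxcl16 (-1.62, adjusted p = 0.0144), Ccl9 (-1.80, adjusted p = 0.0119) and Ccl6 (-1.29, adjusted p = 0.0483) were called lower as well. In either direction that fit called 1118 of all 6920 genes, against 652 with all mice.

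Without the filter the same copy was the single call among the 45 members, where 0.717% of all genes tested were called lower. Cxcr2 at -3.80 (SE 1.14, adjusted p = 0.0726), Ccr9 at -2.87 (SE 0.96, adjusted p = 0.103) and Cxcl9 at -1.97 (SE 0.72, adjusted p = 0.131) were estimated lower and did not pass, and each had its high KPC values in mice 40, 89, 145 and 154. In either direction the main fit called 433 of all 16176 genes. DESeq2 called 664, with 3 members lower, the copy together with Cxcr2 (-3.83, adjusted p = 0.0411) and Ccl5 (-1.76, adjusted p = 0.023). Without KPC ASC KO mice 377 and 384, Ccl22 was called lower as well (adjusted p = 0.0286), with 0 counts in the 3 remaining libraries of that group. That fit called 921 of all 16176 genes. Leaving out KPC mouse 43 gave 5 calls, the copy with Cxcr2, Ccr9, Ccl5 and Cxcl9, and 956 calls over all 16176 genes.

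The comparison of KPC ASC KO with WT uses mice that also enter the comparisons above, so its values are only set beside theirs. No chemokine gene was called between KPC ASC KO and WT by edgeR, and the share called over all 6920 genes was 0%. At an unadjusted p under 0.05 were 6 of the 12, beside 691 of all 6920 genes. Beside Ccr2 the estimates were 1.77 (SE 0.64) for Ccl17, 1.62 (SE 0.58) for Ccl9, 1.34 (SE 0.56) for Ccl6, 1.33 (SE 0.47) for Cxcl14 and 0.93 (SE 0.45) for Cxcl16, with adjusted p of 0.351, 0.351, 0.443, 0.333 and 0.491. Without the filter 0.00618% of all genes and none of the 45 members were called. At an unadjusted p under 0.05 were 14 of the 45, beside 1382 of all 16176 genes. When only those 2 groups entered that fit, 171 of all 16176 genes were called, against 1 in the fit with 3 groups. In it 5 members were called higher in KPC ASC KO: Ccl9 (1.70, adjusted p = 0.00188), Ccr2 (2.60, adjusted p = 0.0039), Ccl17 (1.81, adjusted p = 0.0236), Cxcl14 (1.39, adjusted p = 0.0468) and Cxcl17 (adjusted p = 0.0479).

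Summed over all 54 genes, the members reached 513 to 660 CPM in WT (median 597) and 868 to 1770 CPM in KPC (median 1620), and 527.1, 562.6, 1150.4, 1177.8 and 650.2 CPM in KPC ASC KO. The lowest KPC sum, of mouse 43, lay above the highest WT sum. KPC ASC KO mice 377 and 384 lay within the KPC range and mice 318, 335 and 388 within that of WT. As a share of all counts the members made up 0.222% in KPC, against 0.0394% in WT and 0.0696% in KPC ASC KO. The number of members with at least 1 count was 24 to 28 in WT, 36 to 49 in KPC and 27 to 41 in KPC ASC KO. At the depth of the shallowest library, 294077 counts, the calculated numbers were 20.4 to 26, 31.7 to 43.8 and 22 to 36.3, and every KPC library lay above every WT library. Equal totals do not mean equal sampling of the other genes: the 8 acinar genes made up a mean of 21.6% of counts in WT and 7.45% in KPC. TMM factors ran from 0.52 to 0.81 in WT and from 0.97 to 2.28 in KPC. Detection over all genes at that depth was not calculated.

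**Figure D5:**
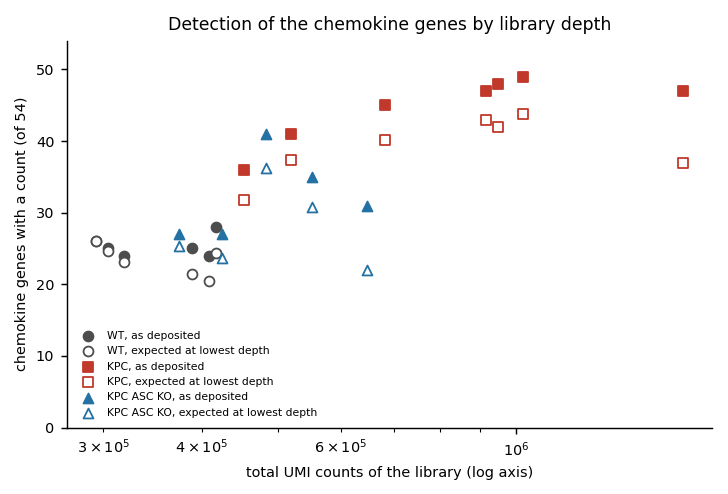
Number of the 54 chemokine genes with at least 1 count against the total counts of the library (log axis), as deposited (filled) and as calculated for the lowest depth of 294077 counts (open). The open squares of KPC, at 31.7 to 43.8, lie above the open circles of WT, at 20.4 to 26.

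Other genes of chemokine signalling were taken from a list of 48, among them the G proteins that receptors activate, the kinases and arrestins that silence receptors, and the small GTPase machinery of cell movement. Of 32 that passed the filter 23 were higher in KPC than in WT and none was lower, where 14.8% of all 6920 genes were called higher and 15.1% lower. Their median log2 difference was 1.17, beside 0.06 over all genes. The inhibitory G protein subunit gene Gnai2 averaged 186 ± 21.2 CPM (SD, n = 6) among WT mice and 426 ± 96.1 CPM (SD, n = 7) among KPC mice (1.20, SE 0.22, adjusted p = 0.000395, edgeR). The Src-family kinase gene Lyn rose by 1.89 (SE 0.39, adjusted p = 0.0013), Rgs10, which switches off G proteins, by 1.85 (SE 0.41, adjusted p = 0.00226), the small GTPase gene Cdc42 by 0.82 (SE 0.18, adjusted p = 0.00197), and Elmo1, a partner of the Rac activator Dock2, by 2.60 (SE 0.58, adjusted p = 0.00233). Without KPC mice 40, 89, 145 and 154, 3 of the 32 were called, and 728 of all 6920 genes.

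In KPC ASC KO against KPC, 9 of the 32 signalling genes were lower and none was higher, where 2.69% of all genes tested were called lower and 6.73% higher. Their median was -0.94, beside -0.05 over all genes. They included Pik3cd (-2.35, SE 0.48, adjusted p = 0.00632) and Pik3cg (-1.43, SE 0.39, adjusted p = 0.0251), the leukocyte phosphoinositide kinases, the Rac activator genes Vav1 (-1.56, SE 0.44, adjusted p = 0.0303) and Prex1 (-1.48, SE 0.43, adjusted p = 0.0343), and Gnai2, Elmo1, Rgs2 and Ptk2b with adjusted p of 0.0332 to 0.0491. The mean of Pik3cd was 38.2 ± 17.7 CPM (SD, n = 7) in KPC. It was 6.37 ± 4.98 CPM (SD, n = 5) in KPC ASC KO, near its WT mean of 9.52 ± 3.68 CPM (SD, n = 6). Without KPC mice 40, 89, 145 and 154 none of the 9 was called, and only 1 of all 6920 genes. Leaving out 1 mouse at a time gave between 1 and 16 of the 32, and between 195 and 1066 of all genes. Of the 32, 5 or fewer were called without KPC mouse 40, 89, 145 or 154 or KPC ASC KO mouse 318, 335 or 388, and 15 or 16 without KPC mouse 48 or 43. None of the 32 was called between KPC ASC KO and WT in edgeR, with 3 at an unadjusted p under 0.05.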

How the data were processed

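Libraries covered the 3′ ends of transcripts, with sample indices of 8 bp and molecular identifiers (UMIs) of 10 bp, per the labels' protocols. The deposited table holds whole-number UMI counts per gene, not normalised, as the authors counted them. GRCm38/mm10 is the build, and edgeR 3.36.0, limma 3.50.0 and R 4.1.2 are the tools, per the submitters' processing notes. Not given in the sources used here are the aligner, the UMI collapsing, the strand setting and the annotation.

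The counts were analysed with edgeR 4.0.16 in R 4.3.3: filterByExpr (minimum count 10, smallest group of 5), TMM scaling, and the robust quasi-likelihood F test on all 18 mice in 3 groups without covariates. Benjamini-Hochberg adjustment ran over all 6920 genes tested, and a gene was called at an adjusted p under 0.05. Most members fall below that filter, so the same test was also run on the 16176 genes with at least 15 counts over all libraries. Differences are log2 fold changes with standard errors. CPM are counts scaled to the TMM-adjusted library size, and role sums add them without a test. P-values weigh the difference between groups against the spread between mice. Members passing the filter are named with their values in the mice. Sparse members with at least 30 counts or a call are named with counts, with CPM by group or with the log2 difference alone. Signalling genes are named where called or among the smallest p-values. Alternatives were total-count and RLE scaling, DESeq2 1.42.0, limma-voom (limma 3.58.1), only 2 groups in the fit, no robust estimation, a stricter filter (at least 10 counts in at least 12 libraries), a minimum of 30 counts for the test without the filter and leaving out each mouse. The test was checked on simulated counts. Libraries of a group differed from each other by more than sampling noise. The members and lists were chosen with earlier results of these data known, and the role of CCR7 ligand copies was added once the matching rows were seen.

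Exon overlaps used GENCODE M21. Exons of Ccl25, the chromosome 4 row of Ccl27a, Ccr9, Cx3cr1, Cxcl10, Cxcl11, Cxcl16 and Xcl1 overlap another gene. Promoters were matched by symbol for 35 members. Ccl2, Ccl4, Ccl5, Ccl7, Ccl11, Ccl19-ps1, Ccl19-ps3, Ccl21c, Ccl24, Ccr10, Cxcl5, Cxcl11, Cxcl16 and Cxcl17 had no entry. Results that need some items are not reported here.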

Additional observations from a re-analysis of the deposited data

Results flagged for a closer look

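In each group the highest and lowest mouse were compared with the nearest other mouse for every chemokine gene above the filter and for 3 sums, 45 groups of values in all, and 3 stood apart. Chance alone sets apart about 1 in 20 such groups. Ccl17 was 78.3 CPM in KPC mouse 43, where the next KPC mouse had 31.5. Ccl12 was 40.8 CPM in WT mouse 69, where the next WT mouse had 10.3. The sum of the sparse ligand genes other than the CCR7 ligand copies was 102.1 CPM in WT mouse 69, where the next WT mouse had 51.6.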

How the results depend on the processing

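Brackets with the word all give the genes called in either direction over the whole fit. Those fits held 6920 genes above the filter, 3294 with the stricter filter and 16176 without the filter. Called chemokine genes above the filter in KPC against WT went from 6 (all 2070) to 12 with total counts only (all 5684). They were 3 in limma-voom (all 1552), 2 with the stricter filter (4 tested, all 1230) and 0 with the macrophage covariate (all 5), and ranged from 5 to 7 when 1 mouse was left out. Without the filter the 14 (all 2468) became 40 with total counts only (all 9991), 9 in DESeq2 (all 2259) and 9 in limma-voom (all 2135). They became 0 with the macrophage covariate (all 3), and 7 to 18 when 1 mouse was left out. For the signalling genes the 23 (all 2070) became 11 in limma-voom (all 1552) and 8 with the stricter filter (9 tested, all 1230). They became 3 without KPC mice 40, 89, 145 and 154 (all 728) and 0 with the macrophage covariate (all 5), and 19 to 23 when 1 mouse was left out. In KPC ASC KO against KPC the 1 call above the filter (all 652) became 8 with total counts only (all 5193, median log2 of all genes -1.14). It became 2 in DESeq2 (all 810), 2 without robust estimation (all 654) and 2 with the stricter filter (all 592), in each of these 3 with Ccl5. It became 0 without those 4 KPC mice (all 1), 4 without KPC ASC KO mice 377 and 384 (all 1118) and 0 with the macrophage covariate (all 7). When 1 mouse was left out it was 0 to 2. It was 0 without KPC ASC KO mouse 318, 335 or 388 (all 195 to 228), and 2 without KPC mouse 43, 48 or 210 (all 788 to 1066). Without the filter that 1 (all 433) became 23 with total counts only (all 7177), 3 in DESeq2 (all 664), 0 in limma-voom (all 648) and 3 without robust estimation (all 588). It became 0 without the 4 KPC mice (all 57), 4 without mice 377 and 384 (all 921) and 0 with the macrophage covariate (all 9), and 0 to 5 when 1 mouse was left out. The 9 signalling genes (all 652) became 29 with total counts only (all 5193), 3 in limma-voom (all 658) and 2 with only the 2 groups compared (all 265). They became 0 without the 4 KPC mice (all 1) and 0 with the macrophage covariate (all 7), and 1 to 16 when 1 mouse was left out. In KPC ASC KO against WT the 0 without the filter (all 1) became 5 with only the 2 groups compared (all 171). It became 1 (Ccr2, 2.65, adjusted p = 0.0306) without the 4 KPC mice (all 12). Directions turned in KPC against WT for Ccl6 (-0.72), Ccl9 (-0.25) and the Ccl27a row on JH584293.1 (0.47) with the macrophage covariate, and for Ccl5 without the 4 KPC mice (-0.89) and with the B cell covariate (-0.08). The summed CPM of all members moved from 596 to 394 in WT and from 1430 to 2220 in KPC with CPM of the library total, and ranged from 583 to 613 and from 1370 to 1520 when 1 mouse was left out. The cause of these changes was not tested. The covariates and the fits without several mice were chosen after seeing the data. No paired analysis was possible because mouse numbers are not shared between groups. Library totals of 294077 to 416879 counts in WT, below all KPC libraries, limit what can be seen of the sparse genes there.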

Other observations

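The atypical chemokine receptors bind chemokines without G protein signalling and so remove or transport them. Ackr4, which takes up CCR7 and CCR9 ligands, averaged 12.3 ± 5.97 CPM (SD, n = 7) among KPC mice. Its mean was 3.28 ± 2.80 CPM (SD, n = 6) among WT mice and 2.64 ± 2.51 CPM (SD, n = 5) among KPC ASC KO mice. Ackr2, a scavenger of inflammatory CC chemokines, had no count in any WT library, and its mean was 4.03 CPM among KPC mice and 1.11 CPM among KPC ASC KO mice. For Ackr1 the means were 0.707 CPM (WT), 6.77 CPM (KPC) and 6.48 CPM (KPC ASC KO). Ccrl2, a related receptor that holds chemokines at the cell surface, had means of 5.27 CPM (WT), 2.14 CPM (KPC) and 1.88 CPM (KPC ASC KO). These 4 genes did not pass the filter. Ackr3 passed and was not called between KPC and WT in edgeR (0.42, SE 0.60, adjusted p = 0.631).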
